A study of Rattus norvegicus with 32 samples.

Results

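The comparison described here is between the 2 sets of libraries that make up the iron-deficient control group: 5 libraries titled with the first number 69 (69-1 to 69-5, called set 69) and 4 titled with 70 (70-1 to 70-4, called set 70), 9 of the 32 libraries in all. The members were taken from the titles alone, without use of any measured value. All 9 came from the hippocampus of wild-type rat pups whose dams received a purified diet of 3 to 6 ppm iron from gestational day 3 to postnatal day 7, and none of the pups received insulin. Diet, genotype, tissue and treatment were therefore the same in both sets, and the labels do not say what the first title number stands for. If it stands for a litter or another shared unit, each side holds 1 such unit. The rats would then not be independent replicates of a set, and the p-values between the sets would measure only spread between rats within a set. The other groups used for reference were iron-sufficient controls (IS control, n = 8), iron-sufficient pups given intranasal insulin 2 times a day from postnatal day 8 to 21 (IS insulin, n = 7) and iron-deficient pups given the same insulin (ID insulin, n = 8). Their first title numbers were 71, 72 and 73 in that order, with 1 number per group. Diet and insulin therefore cannot be told apart from the title number in any comparison with these groups. Each library was made from total RNA of 1 hippocampus of 1 rat. Animals were killed on postnatal day 7 or 21, and the labels do not assign a day to a library, so a difference in age between the sets cannot be told apart from any other difference between them.

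The hippocampus of the young rat is still being built: oligodendrocytes are differentiating and beginning to wrap axons in myelin, a membrane rich in a small set of proteins such as myelin basic protein and CNP. At the same time neurons raise their respiratory capacity, and the respiratory chain is assembled from many proteins encoded in the nucleus and a few encoded in the mitochondrial genome, which is inherited from the mother and transcribed as long precursors that are cut into single messengers. Early-life iron deficiency is known as a condition that touches both systems, since myelinating cells and the respiratory chain use much iron. A comparison of animals on the same diet shows how far such genes differ without any difference in diet.

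Set 69 libraries held 19810449 to 23436458 counted reads and set 70 libraries 22188241 to 26182907 (exact permutation test of the means over all assignments of the 9 libraries, two-sided p = 0.0317, adjusted over 4 library measures 0.0423). Between 17949 and 18282 genes had a count in set 69 and between 18271 and 18446 in set 70 (exact p = 0.0238, adjusted 0.0423). Markers of the hippocampus were present at like levels: the summed level of the dentate granule cell list was 287 to 344 CPM (counts scaled to the size of the library) in set 69 and 293 to 352 in set 70, and that of the pyramidal cell list was 1177 to 1448 and 1234 to 1392. Y-linked transcripts exceeded 10 CPM in 1 of the 5 set 69 libraries and in 2 of the 4 set 70 libraries. Library 69-2 stood apart in a list of 20 pineal and photoreceptor genes, drawn up after this was seen. Their summed level was 1128 CPM there, 6.40 to 10.2 CPM in the other 8 libraries of both sets and at most 228 CPM in any of the other 31 libraries. Of the 20 genes, Tph1, the enzyme that starts melatonin synthesis from tryptophan, reached 668 CPM in library 69-2 and at most 0.270 CPM in the other 8. The filter on low counts was passed by 6 of the 20, of which 0 were called. The list was drawn up for its spread within set 69, so this 0 decides nothing about a difference between the sets.

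Across 15008 tested genes, 33 differed between the sets at an adjusted p below 0.05 (edgeR quasi-likelihood F-test, Benjamini-Hochberg adjustment over all tested genes), which is 0.220% of them. Of the 33, 11 were higher and 22 were lower in set 70, and the sets did not overlap in any of the 33. Non-overlapping sets were found for 534 genes, 3.56% of those tested. Most called differences were small: the median size among the 33 was 0.47 on the log2 scale, and 4 genes, Ephx2, Dcun1d2, Pcdhga11 and Slc4a1, differed by 2-fold or more. Over all tested genes the median log2 fold change was 0.00. Without adjustment, 1338 genes (8.92%) had a p below 0.05. DESeq2 called 165 genes (1.10%) and limma with voom 53 (0.353%). The number of edgeR calls depended on single libraries and fell to 15 without 69-1, to 17 without 69-2, to 19 without 69-3, to 9 without 70-1, to 7 without 70-2, to 9 without 70-3 and to 4 without 70-4.

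**Figure D1:**
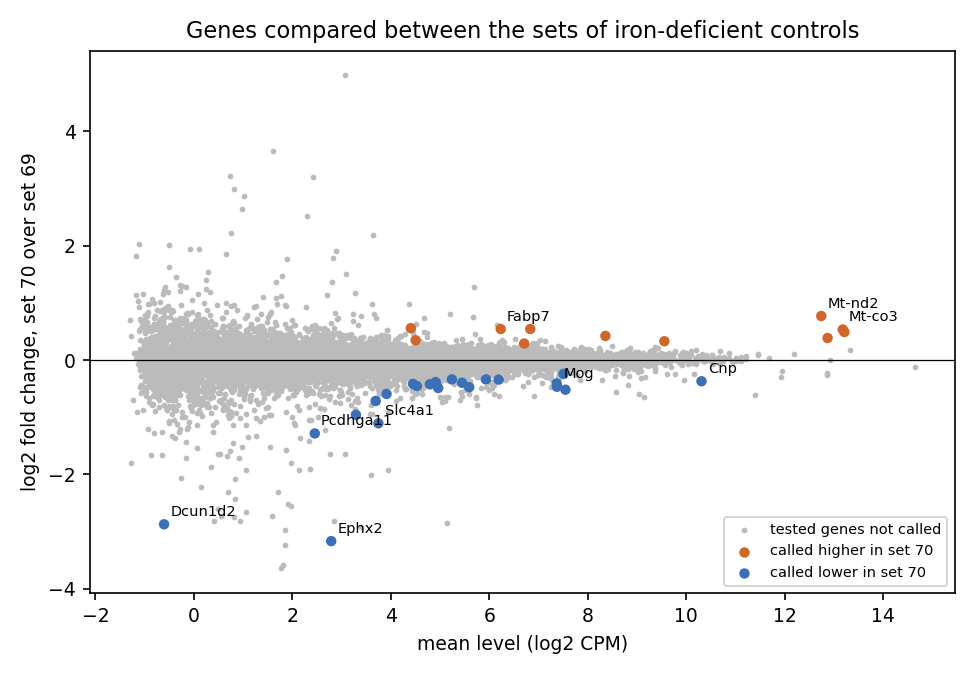
Log2 fold change of set 70 over set 69 (vertical axis) against mean level in log2 CPM (horizontal axis) for the 15008 tested genes, with genes called higher in set 70 in orange and lower in blue. The 33 called genes are few and mostly within 1 log2 unit of 0, with Ephx2 and Dcun1d2 far below the rest, while scattered grey points at larger fold changes are genes that vary within a set.

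In the principal components of the 9 libraries, the second component, with 15.7% of the variance, separated the sets. Set 69 lay between -21.32 and 0.75 on it and set 70 between 5.79 and 19.93. The first component, with 21.9% of the variance, mixed the sets, and 7 of its 50 largest gene loadings were choroid plexus genes.

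**Figure D2:**
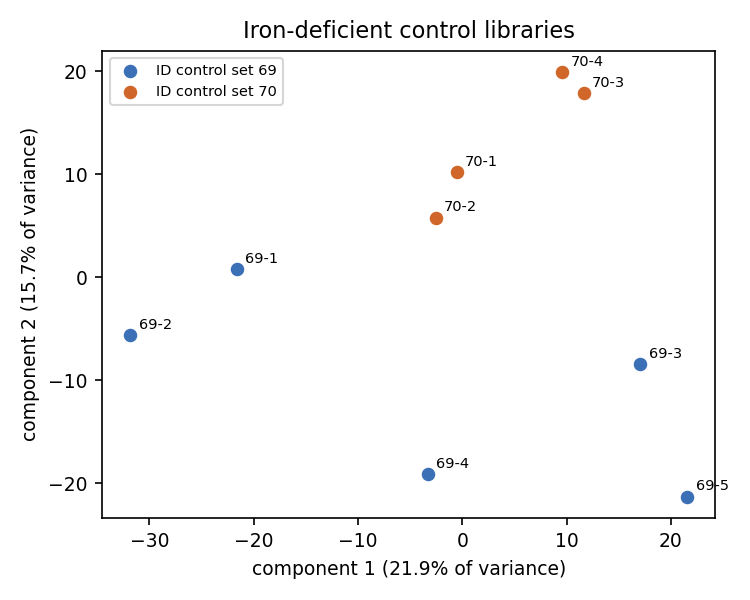
First and second principal components of log2 CPM over the 9 iron-deficient control libraries, each point being 1 library. Set 70 (orange) lies above set 69 (blue) on component 2, where the nearest libraries are 69-1 at 0.75 and 70-2 at 5.79, and set 69 is spread widely along component 1.

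The largest difference among the called genes was in Ephx2 (ENSRNOG00000017286), which encodes soluble epoxide hydrolase, the enzyme that converts signalling epoxides of arachidonic acid to their less active diols. Its level was 12.6, 11.9, 11.1, 10.1 and 10.9 CPM in libraries 69-1 to 69-5 and 1.67, 1.34, 1.10 and 0.898 CPM in libraries 70-1 to 70-4. Every set 69 library was thus several-fold above every set 70 library, with little spread within either. The log2 fold change was -3.16 (SE 0.16, 95% interval -3.51 to -2.82, adjusted p = 2.42e-06), and the gene was called in each of the 12 other settings and in each of the 9 fits that left out 1 library.

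Ephx2 also took separate levels within the other groups. In IS control it was 8.34 to 18.7 CPM, with 5 of 8 libraries above 15 CPM and 3 between 8 and 15. In IS insulin, 3 of 7 libraries were above 15 CPM and 4 between 8 and 15. In ID insulin, 3 of 8 libraries were below 2 CPM, as all 4 of set 70 were, 1 lay between 2 and 8 CPM, and 4 lay between 8 and 15. No IS control or IS insulin library was below 8 CPM. The bounds of 2, 8 and 15 CPM were set after the values were seen and serve only to describe them. Against IS control, in a fit of all 32 libraries, Ephx2 had a log2 fold change of -3.53 in set 70 (adjusted p = 0.0019) and -0.37 in set 69 (adjusted p = 0.772). These 2 values share the IS control libraries.

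**Figure D3:**
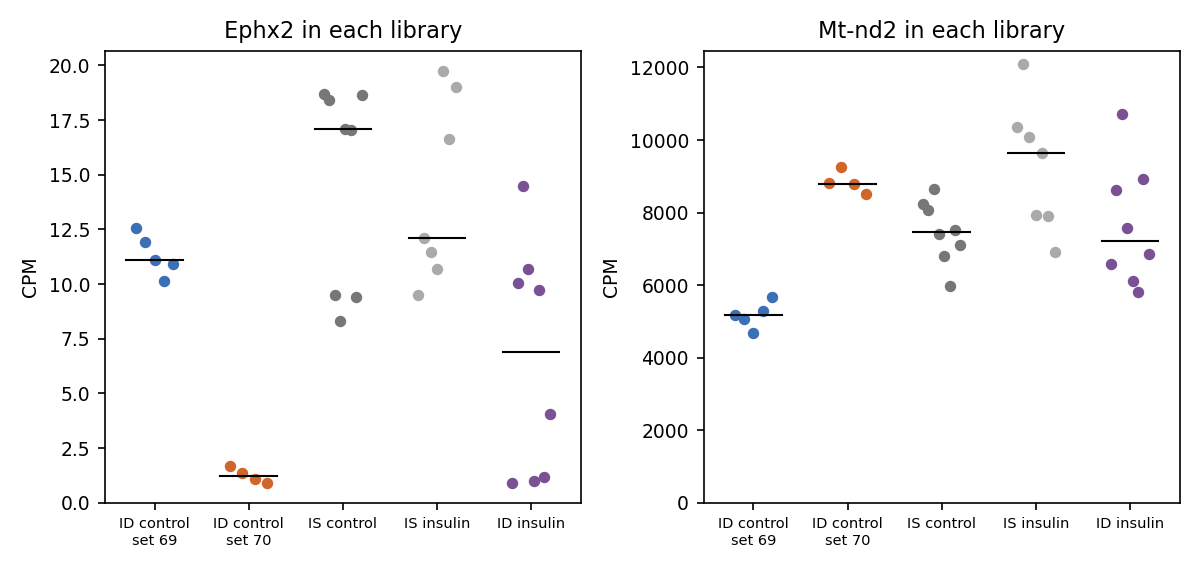
Ephx2 and Mt-nd2 levels in CPM in each of the 32 libraries, by group, with 1 point per library and a line at the group median. For Ephx2, set 70 sits below 2 CPM with 3 ID insulin libraries, and for Mt-nd2, set 69 sits at or below 5684 CPM and set 70 at or above 8525 CPM.

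Of the 13 protein genes of the mitochondrial genome, 6 were higher in set 70, 1 was lower and 6 were not called, against 0.220% of all tested genes called. Their median log2 fold change was 0.33. The genes code for subunits of complex I (Mt-nd1 to Mt-nd6 and Mt-nd4l), complex III (Mt-cyb), complex IV (Mt-co1 to Mt-co3) and the ATP synthase (Mt-atp6 and Mt-atp8). Those that rose did not form 1 complex: they were 3 complex I genes, 1 complex IV gene and both ATP synthase genes.

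Among the complex I genes, Mt-nd2 (ENSRNOG00000031033) had the largest increase. Its level was 5188, 5066, 4680, 5299 and 5684 CPM in set 69 and 8822, 9260, 8775 and 8525 CPM in set 70. The sets were far apart, and IS control lay above set 69 and reached into set 70, at 5964 to 8640 CPM. The log2 fold change was 0.77 (SE 0.06, adjusted p = 3.77e-04), and Mt-nd2 was called in each of the 11 other settings that held it and in each of the 9 fits that left out 1 library. Mt-nd1 was 6265 to 7181 CPM in set 69 and 8191 to 8907 CPM in set 70 (log2 fold change 0.38, SE 0.06, adjusted p = 0.0299). Mt-nd4l was 627 to 694 CPM and 815 to 864 CPM, a log2 fold change of 0.33 (SE 0.04, adjusted p = 0.0152). Mt-nd6, the single protein gene on the light strand, was lower, at 40.3 to 42.5 CPM in set 69 and 29.3 to 34.3 CPM in set 70 (log2 fold change -0.34, SE 0.06, adjusted p = 0.0419). Mt-nd5 had a log2 fold change of 0.11 (adjusted p = 0.619), Mt-nd3 of -0.24 (adjusted p = 0.291) and Mt-nd4 of 0.61 (SE 0.19, adjusted p = 0.313), and none of these 3 passed the test.

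Among the complex IV and ATP synthase genes, Mt-co3 was 7111, 7352, 7161, 8046 and 8722 CPM in set 69 and 11020, 11780, 11200 and 10500 CPM in set 70. Every set 70 library exceeded every set 69 library, with a log2 fold change of 0.53 (SE 0.07, adjusted p = 0.0175). Mt-atp6, whose start overlaps the end of Mt-atp8, had a log2 fold change of 0.49 (SE 0.07, adjusted p = 0.0175) and Mt-atp8 of 0.42 (SE 0.07, adjusted p = 0.0406). Mt-co2 had a log2 fold change of 0.00 (SE 0.06), Mt-co1 of -0.11 (SE 0.07, adjusted p = 0.698) and Mt-cyb, the complex III gene, of 0.18 (SE 0.06, adjusted p = 0.408). Counts of genes that overlap on the mitochondrial genome, such as Mt-atp8 and Mt-atp6, Mt-nd4l and Mt-nd4, or Mt-nd5 and Mt-nd6 on the other strand, may be split between them by the counting and are uncertain in that respect.

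**Figure D4:**
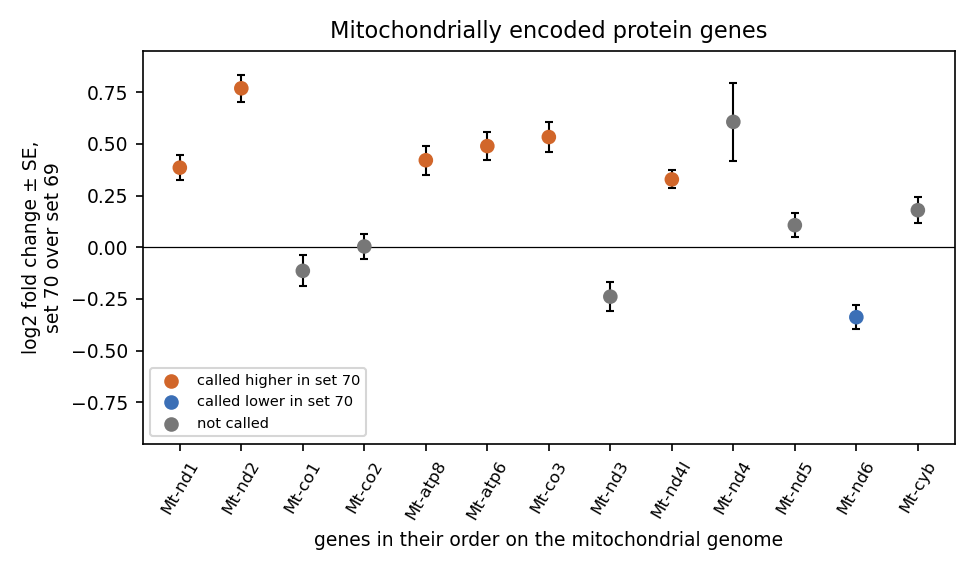
Log2 fold change of set 70 over set 69 for the 13 mitochondrially encoded protein genes, in their order on the mitochondrial genome, with bars of 1 SE. Mt-nd2 is highest at 0.77, its neighbours are Mt-nd1 at 0.38 and Mt-co1 at -0.11, Mt-co2 lies at 0.00, Mt-atp8, Mt-atp6 and Mt-co3 are between 0.42 and 0.53, and Mt-nd6 is lowest at -0.34.

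The mitochondrially encoded counts made up 7.47% to 8.41% of a set 69 library (mean 7.85% ± 0.350, SD, n = 5) and 8.58% to 9.30% of a set 70 library (mean 9.00% ± 0.321, SD, n = 4). The difference in means had an exact two-sided permutation p of 0.0159, adjusted over the 4 library measures to 0.0423. The makeup of these counts also differed, as described here without a test. Mt-co1 took 33.3%, 34.2%, 34.2%, 34.2% and 34.7% of the counts of the 13 genes in libraries 69-1 to 69-5, and 27.6%, 27.1%, 27.1% and 27.3% in libraries 70-1 to 70-4. Each set kept to a range of under 2 percentage points, with a wide gap between them. Mt-nd2 took 6.27% to 6.98% in set 69 and 9.58% to 10.2% in set 70. Set 69 stood outside all 27 other libraries of the series in both shares. In those, which include set 70, the Mt-co1 share was 27.1% to 31.7% and the Mt-nd2 share 7.92% to 10.4%. Set 70 stood at the opposite end for Mt-co1. Its highest share, 27.64%, was below every library of the remaining groups, where the lowest was 27.68%, from IS insulin. For Mt-nd2, set 70 lay inside the IS insulin range of 7.94% to 10.4%.

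The calls of the mitochondrially encoded genes were sensitive to the libraries used, with 1 of the 13 called higher without 70-1, without 70-2, without 70-3 or without 70-4, and 4 or 5 called higher without a set 69 library. In the fit of all 32 libraries Mt-nd2 and Mt-nd4l kept their calls (adjusted p = 0.0337 and 0.0143). Mt-nd1, Mt-co3, Mt-atp6 and Mt-atp8 lost theirs there (adjusted p 0.15 to 0.489). The same genes were kept and lost with the Y-linked level as a covariate (lost at adjusted p 0.054 to 0.0591). Respiratory chain genes of the nucleus gave no call. Of 30 nuclear genes of oxidative phosphorylation, 0 were called by edgeR, DESeq2 or limma, 2 had an unadjusted p below 0.05, and the median log2 fold change was 0.02. Of 19 nuclear genes that copy or transcribe mitochondrial DNA or handle its transcripts, 0 were called by these 3 tools. Of the 19, 3 had an unadjusted p below 0.05, and the median was -0.01. Over all tested genes edgeR called 0.220%, DESeq2 1.10% and limma 0.353%, and 8.92% had an unadjusted p below 0.05. At such shares 0 calls are likely in lists of this size, so these counts do not show that the sets are alike.

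The fitted levels of myelin genes were slightly lower in set 70. Of 24 tested genes of a myelin and oligodendrocyte list, 2 fell (Mog and Cnp), none rose and 22 were not called, while all 24 fitted log2 fold changes were below 0. Their median was -0.25 and they ranged from -0.50 to -0.12. Among all tested genes 7428 of 15008 were below 0. The sets did not overlap in 13 of the 24, against 3.56% of all tested genes. The edgeR calls were 2 of the 24 beside 0.220% of all tested genes. DESeq2 called 12 of the 24, all lower, beside 1.10%, and limma with voom 3, beside 0.353%. Earlier results of these data were known when the list was made.

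Mog, a myelin glycoprotein of the outermost myelin layer that appears late in oligodendrocyte maturation, was 181, 181, 176, 219 and 181 CPM in set 69 and 134, 146, 136 and 129 CPM in set 70. The lowest set 69 library was above the highest set 70 library, and library 69-4 was the highest of all. The log2 fold change was -0.47 (SE 0.07, adjusted p = 0.0175). The call was lost without 70-1 (adjusted p = 0.0771), without 70-2 (0.0503), without 70-3 (0.0673) or without 70-4 (0.0611). Cnp, which encodes a nucleotide phosphodiesterase of myelin, was 1381, 1359, 1328, 1595 and 1340 CPM in set 69 and 1122, 1160, 1066 and 991 CPM in set 70. Its sets did not overlap either, and its log2 fold change was -0.37 (SE 0.07, adjusted p = 0.0490), a call that was lost in each of the 9 fits that left out 1 library (adjusted p 0.0518 without 69-4 to 0.165 without 70-3).

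The remaining genes of the list gave values of the same sign that did not pass the test. Cldn11, the tight junction protein of myelin, had a log2 fold change of -0.32 (SE 0.06, adjusted p = 0.0569). Opalin, an oligodendrocyte membrane protein, had -0.39 (SE 0.08, adjusted p = 0.0713), and Mag, a myelin adhesion molecule that faces the axon, had -0.29 (SE 0.06, adjusted p = 0.0982). Mbp, myelin basic protein, was 7148 to 9075 CPM in set 69 and 5812 to 7529 CPM in set 70, with overlapping sets and a log2 fold change of -0.23 (SE 0.09, adjusted p = 0.438). Sox10, the transcription factor of the whole lineage, had -0.15 (SE 0.06, adjusted p = 0.471).

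The summed level of the list was 22590, 22470, 21120, 25660 and 21430 CPM in set 69 and 19390, 20740, 19300 and 16840 CPM in set 70. The sets did not overlap, and IS control spanned most of both, from 19080 to 26400 CPM. Of 10 oligodendrocyte precursor genes, 0 were called by edgeR and 1 by DESeq2, 3 had an unadjusted p below 0.05, and the median log2 fold change was -0.03. Over all tested genes these rules took 0.220%, 1.10% and 8.92%. The 10 genes went both ways, with 6 log2 fold changes below 0 and 4 above. The 3 were Olig2 at -0.27 (adjusted p = 0.116, sets not overlapping), Olig1 at -0.21 (adjusted p = 0.415) and Vcan at 0.18 (adjusted p = 0.486). In bulk tissue, fewer cells of a type and less RNA per cell cannot be told apart.

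**Figure D5:**
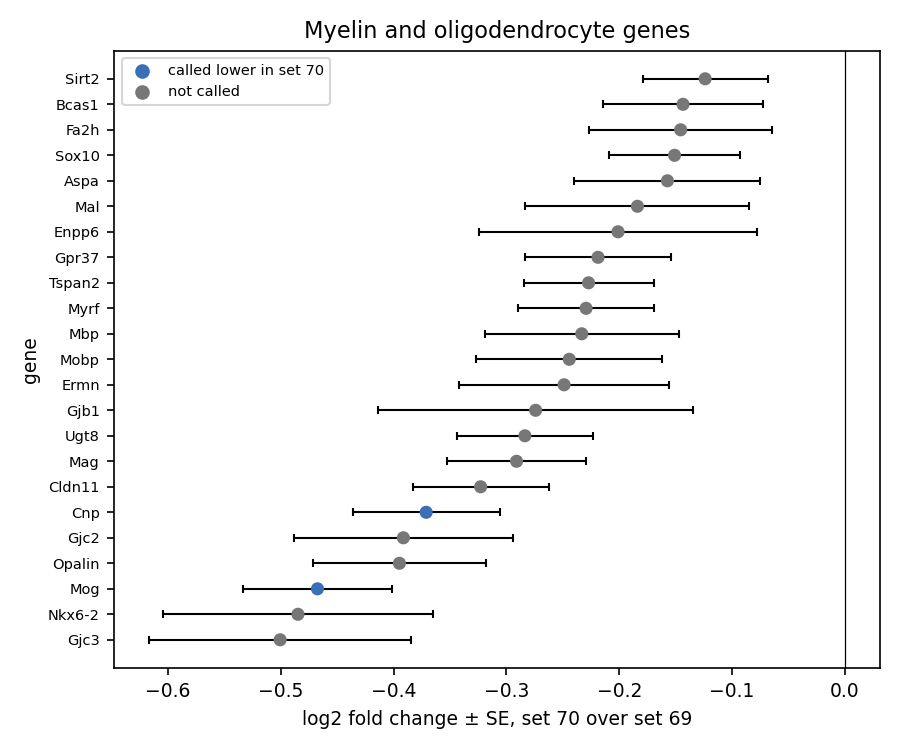
Log2 fold change of set 70 over set 69 for 23 of the 24 tested myelin and oligodendrocyte genes, with bars of 1 SE, called genes in blue and others in grey. All points lie left of 0, from -0.50 for Gjc3 to -0.12 for Sirt2, and the 2 called genes are Mog and Cnp.

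Several genes outside the list that are known from oligodendrocytes were also called lower in set 70. Erbb3, a neuregulin receptor of the oligodendrocyte and Schwann cell lineages, was 56.7, 56.6, 51.9, 57.0 and 50.7 CPM in set 69 and 41.4, 39.3, 42.2 and 34.5 CPM in set 70 (log2 fold change -0.47, SE 0.07, adjusted p = 0.0175). S1pr5, a sphingosine-1-phosphate receptor of mature oligodendrocytes, was 26.1, 27.7, 24.7, 28.4 and 23.0 CPM in set 69 and 19.2, 19.4, 19.7 and 17.6 CPM in set 70 (log2 fold change -0.45, SE 0.08, adjusted p = 0.0406). In both genes the 4 set 70 libraries lay below all 5 of set 69. Gsn, the actin-severing protein gelsolin, had a log2 fold change of -0.52 (SE 0.08, adjusted p = 0.0285), and Sema4d, a transmembrane semaphorin made by oligodendrocytes, had -0.41 (SE 0.05, adjusted p = 0.0148). In the fit of all 32 libraries Erbb3 and Sema4d kept their calls (adjusted p = 0.0461 and 0.0351), and S1pr5 and Gsn did not (0.113 and 0.27). With the Y-linked covariate Sema4d was called (adjusted p = 0.0394), and Erbb3, S1pr5 and Gsn were not (0.0564 to 0.0886). Each of these genes lost its call in at least 1 of the 9 fits that left out 1 library. These genes were chosen for mention after their calls were known.

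The promoters of Cnp and S1pr5 are shown because these are called genes of oligodendrocytes that moved in the same direction and have an entry in the RefSeq promoter table of build GRCr8. Each window runs from 250 bases before to 50 bases after the start of the gene, and capitals mark ACAAAG or its reverse complement CTTTGT, a core that Sox-family factors such as Sox10 can bind. The Cnp window is chr10:86011254-86011553 on the plus strand and holds 1 match, whose first base lies at -203. The S1pr5 window is chr8:28067820-28068119 on the minus strand and holds 0 matches. The letters occur in 18.8% of 33469 promoters of the same length and in 5 of the 17 promoters that could be matched to the myelin list (29.4%). Mog and Erbb3 are not shown.
Cnp: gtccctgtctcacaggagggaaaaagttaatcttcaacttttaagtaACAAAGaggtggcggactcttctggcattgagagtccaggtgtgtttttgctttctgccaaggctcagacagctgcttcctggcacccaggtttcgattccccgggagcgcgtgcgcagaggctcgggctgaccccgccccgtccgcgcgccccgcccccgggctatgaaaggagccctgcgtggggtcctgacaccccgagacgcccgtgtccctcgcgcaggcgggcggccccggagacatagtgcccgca
S1pr5: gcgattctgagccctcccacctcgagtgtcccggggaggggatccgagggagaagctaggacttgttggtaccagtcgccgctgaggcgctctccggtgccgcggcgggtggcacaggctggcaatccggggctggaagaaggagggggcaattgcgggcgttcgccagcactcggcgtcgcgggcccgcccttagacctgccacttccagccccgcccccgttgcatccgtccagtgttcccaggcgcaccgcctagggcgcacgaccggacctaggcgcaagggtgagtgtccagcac

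Fabp7, the brain fatty acid binding protein of radial glia and astrocyte precursors, was higher in set 70. Its level was 59.3, 64.8, 59.4, 67.0 and 59.1 CPM in set 69 and 91.7, 95.1, 87.9 and 86.7 CPM in set 70. The lowest set 70 library was well above the highest set 69 library, and IS control lay below set 70 and reached into set 69, at 65.8 to 84.7 CPM. The log2 fold change was 0.54 (SE 0.05, adjusted p = 0.0015), and the call was kept in each of the 9 fits that left out 1 library but was lost in the fit of all 32 libraries (adjusted p = 0.455). No other gene of a 14-gene list of radial glia and neural progenitor markers was called: Hes5, a Notch target, had a log2 fold change of 0.50 (adjusted p = 0.527), Sox2 of 0.06 (adjusted p = 0.894) and Nes of -0.02 (adjusted p = 0.987). Of 15 astrocyte genes, 0 were called by edgeR, DESeq2 or limma, 2 had an unadjusted p below 0.05, and the median log2 fold change was 0.07.

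The other nuclear genes called higher were Prim1, the small subunit of DNA primase (log2 fold change 0.56, SE 0.08, adjusted p = 0.0222), Rpl17, a protein of the large ribosomal subunit (0.54, SE 0.09, adjusted p = 0.0406), and Dstn, the actin-depolymerising protein destrin (0.29, SE 0.05, adjusted p = 0.0490), with RGD1306063, a placeholder symbol (0.35, adjusted p = 0.0490). Rpl17 was the single call among 82 ribosomal protein genes, or 1.22% beside 0.220% of all tested genes, and their median was 0.02. Ribosomal protein genes have many near-identical copies, and the count of this one is uncertain for that reason.

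Among the genes called lower, Slc4a1, the anion exchanger of red blood cells, was 14.8, 26.2, 15.6, 15.8 and 14.8 CPM in set 69 and 7.31, 9.27, 7.07 and 8.71 CPM in set 70. All of set 69 was above all of set 70, and library 69-2 was the highest. The log2 fold change was -1.11 (SE 0.18, adjusted p = 0.0406). It was the single call among 9 tested blood genes, or 11.1% beside 0.220% of all tested genes. Of the 9, 8 had log2 fold changes below 0, and the median was -0.59. The summed level of the blood list was 1850 to 3438 CPM in set 69, with 69-2 again highest, and 1447 to 2021 CPM in set 70, and its part in the other differences was not tested.

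Pcdhga11, an adhesion protein of the gamma protocadherin cluster, was 10.2, 6.21, 6.74, 6.61 and 6.75 CPM in set 69 and 3.22, 2.64, 3.30 and 2.87 CPM in set 70 (log2 fold change -1.28, SE 0.18, adjusted p = 0.0175). The sets were apart, with library 69-1 above the other set 69 libraries. Genes of this cluster share their last exons, so counts may be split between them and the value is uncertain. Dcun1d2, which helps to attach NEDD8 to cullins, was low throughout, at 0.719 to 1.30 CPM in set 69 and 0.0449 to 0.212 CPM in set 70 (log2 fold change -2.87, SE 0.39, adjusted p = 0.0153). In IS control Dcun1d2 spanned 0.0476 to 3.26 CPM, which covers set 69 and all but the lowest library of set 70.

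Further genes lower in set 70 were Gpx3, the secreted glutathione peroxidase (log2 fold change -0.59, adjusted p = 0.0419), Sec23b, a coat protein of vesicles that leave the endoplasmic reticulum (-0.49, adjusted p = 0.0241), Nipal4, a magnesium transporter (-0.42, adjusted p = 0.0406), and Cavin2, a coat protein of caveolae (-0.42, adjusted p = 0.0419). Myo1d, a class I myosin, had -0.40 (adjusted p = 0.0411), Fzd10, a Wnt receptor, -0.38 (adjusted p = 0.0406), Ccp110, a centriole protein, -0.34 (adjusted p = 0.0434), Dyrk2, a protein kinase, -0.34 (adjusted p = 0.0411), and Plekha1, a phosphoinositide-binding adaptor, -0.24 (adjusted p = 0.0406). The features AABR07043748.1 (-0.72, adjusted p = 0.0153) and LOC685431 (-0.96, adjusted p = 0.0241) carry no gene name. Both were higher in set 69 than in IS control (log2 fold changes 1.04 and 0.64, adjusted p 0.0077 and 0.0067). The 22 called nuclear genes that could be placed by symbol lay on 11 chromosomes, with at most 5 on the same chromosome. Of the 22, 0 had another called gene as its next tested neighbour. With 22 called among 13168 placed genes, neighbouring calls would be rare in any case, so this count decides nothing about shared loci.

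The IS control median was nearer to set 69 for 18 of the 33 called genes and nearer to set 70 for 15.

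For 31 of the 38 lists with tested members, edgeR called 0 genes, DESeq2 also called 0 in 24 of the 31 and limma in 29. The 31 lists hold 7 to 33 tested genes each, and edgeR called 0.220% of all tested genes. A list of that size would mostly hold 0 calls at this share, so no list with 0 calls shows that the sets are alike. Stress and immune genes came closest. Of 18 heat shock and endoplasmic reticulum stress genes, 0 were called by edgeR, 4 by DESeq2 and 3 by limma, 8 had an unadjusted p below 0.05, and the median log2 fold change was -0.12. Over all tested genes these rules took 0.220%, 1.10%, 0.353% and 8.92%. Hspa5, the main chaperone of the endoplasmic reticulum, was 377 to 436 CPM in set 69 and 316 to 347 CPM in set 70 (log2 fold change -0.28, adjusted p = 0.0568), and the sets did not overlap. Of 22 interferon response genes, 0 were called by edgeR, 2 by DESeq2 and 1 by limma, 8 had an unadjusted p below 0.05, 18 had log2 fold changes below 0 and the median was -0.21, beside the same shares over all tested genes. Stat2, a transcription factor of the type I interferon response, was 37.6 to 42.1 CPM in set 69 and 32.9 to 33.7 CPM in set 70 (log2 fold change -0.28, adjusted p = 0.0569).

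Choroid plexus genes, which mark the tissue that makes cerebrospinal fluid and borders the hippocampus, varied widely within set 69. Ttr, transthyretin, was 5102, 4259, 1074, 4168 and 1245 CPM in set 69 and 3078, 2252, 1505 and 1476 CPM in set 70. Libraries 69-3 and 69-5 were the lowest of the 9, and the sets overlapped (log2 fold change -0.61, SE 0.43, adjusted p = 0.725). Of 14 choroid plexus genes, 0 were called by edgeR, DESeq2 or limma, 1 had an unadjusted p below 0.05 and all 14 had log2 fold changes below 0, with a median of -0.63. With the choroid plexus level as a covariate, 26 genes were called between the sets, 22 of them among the 33.

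The genes that differed between the diet groups gave no edgeR call between the sets. Iron-deficient controls as a whole differed from IS control in 45 of 15439 genes (0.291%), 27 higher and 18 lower. Of these 45 genes, 43 were tested between the sets. Between the sets, 0 of the 43 were called by edgeR, 1 by DESeq2 and 0 by limma, and 5 had an unadjusted p below 0.05. Over all tested genes these rules took 0.220%, 1.10%, 0.353% and 8.92% in that order. The iron-deficient arm that gave the 43 genes is these same 9 libraries, so a gene that differed between the sets was less likely to be among them, and the count does not show that the sets are alike. The median size of their log2 fold changes between the sets was 0.09, beside 0.08 over all tested genes.

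Tfrc, which encodes the receptor for iron-loaded transferrin, was 170, 169, 169, 194 and 128 CPM in set 69 and 155, 191, 166 and 178 CPM in set 70. The sets overlapped fully, with a log2 fold change of 0.05 (SE 0.10, 95% interval -0.16 to 0.27, adjusted p = 0.918), and IS control was lower at 106 to 127 CPM. Slc39a12, a zinc transporter, was 2.11 to 3.96 CPM in set 69 and 2.22 to 3.68 CPM in set 70 (log2 fold change -0.04, 95% interval -0.53 to 0.44), while IS control spanned 2.97 to 38.5 CPM. Vav2, an exchange factor for small GTPases, had a log2 fold change of -0.02 between the sets (95% interval -0.19 to 0.15), and Scara3, a scavenger receptor, of 0.01 (95% interval -0.16 to 0.19). Of 21 genes of iron uptake, storage and export, 0 were called by edgeR, DESeq2 or limma, 2 had an unadjusted p below 0.05, and the median was -0.04.

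Set 70 alone differed from IS control in 45 of 15798 genes (0.285%), 22 higher and 23 lower, and set 69 alone in 49 (0.310%), 34 higher and 15 lower. These comparisons share the IS control libraries, and in both of them diet cannot be told apart from the first title number. Tfrc had a log2 fold change of 0.56 in set 70 and 0.50 in set 69 against IS control (adjusted p = 0.0011 and 0.0020), and Vav2 had -0.80 and -0.77 (adjusted p = 0.0057 and 0.0036). Sema4d had -0.44 in set 70 (adjusted p = 0.0051) and -0.03 in set 69 (adjusted p = 0.933). Mt-nd4l had 0.06 in set 70 (adjusted p = 0.761) and -0.27 in set 69 (adjusted p = 0.0087).

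Insulin-treated iron-deficient pups differed from iron-deficient controls in 589 genes (3.82% of those tested), of which 568 were tested between the sets. Of these, 4 were called between the sets, Nipal4, Pcdhga11, Sema4d and Slc4a1, or 0.704% beside 0.220% of all tested genes. DESeq2 called 18 of the 568, beside 1.10% of all tested genes. The control group of that comparison is the 9 libraries described here. Slc4a1 was 16.6 to 54.7 CPM in ID insulin, above set 70 in every library and overlapping with set 69 through library 69-2.

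Of 26 immediate early genes, 0 were called by edgeR and limma and 1 by DESeq2, 2 had an unadjusted p below 0.05, and the median log2 fold change was 0.08. Fos, the immediate early transcription factor, was 14.6, 11.5, 16.2, 9.35 and 10.4 CPM in set 69 and 14.9, 11.2, 17.8 and 14.6 CPM in set 70 (log2 fold change 0.23, SE 0.17, adjusted p = 0.737). The sets overlapped. Mki67, the proliferation marker, was 7.15 to 8.59 CPM in set 69 and 5.16 to 9.33 CPM in set 70 (log2 fold change -0.16, SE 0.15, adjusted p = 0.810).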

How the data were processed

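Reads of the hippocampal libraries were trimmed with Trimmomatic 0.40, aligned with HISAT2 2.1.0 and counted with featureCounts, tools named per the submitters' processing notes, which list the builds Rnor_6.0 and mm10 without saying which table used which; the deposited table carries rat Ensembl identifiers. The authors deposited raw counts per gene for 32 libraries. Whether counting used strand is not given in the sources used here. Columns were matched to samples by title. Each library is from a different rat, and the labels do not give the litters.

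Counts of the 9 iron-deficient control libraries were tested with edgeR 4.0.16 in R 4.3.3: TMM scaling, the filterByExpr filter by set, the quasi-likelihood F-test with 7 residual degrees of freedom and Benjamini-Hochberg adjustment over 15008 genes, called below 0.05. A positive log2 fold change means higher in set 70. Printed CPM values use TMM-scaled library sizes over all 32 libraries, except for the pineal list, which uses total counts. DESeq2 1.42.0 and limma 3.58.1 (voom with quality weights) were alternatives, with other scalings, filters, covariates and each library left out in turn. Comparisons with IS control and with insulin were fitted over all 32 libraries. Genes were named by a rule: the 12 largest increases and 12 largest decreases among called genes with a symbol whose mean log2 CPM was 1 or more, up to 3 called genes of each list, and 8 single genes; every other gene named was picked after its values were seen. Members and lists were chosen with earlier results of these data known. Pairs of libraries within a set differed by more than sampling noise (chi-square per gene 5.91 to 23.6), so none was treated as a duplicate. The script was tested on simulated data. A gene of the myelin list enters the counts and sums but is not reported here on its own.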

Additional observations from a re-analysis of the deposited data

Results flagged for a closer look

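In 70 screened sets of values, 4 held a library far from the rest of its set, where chance flags about 1 in 20. Pcdhga11 was 10.19 CPM in library 69-1 and 6.21 to 6.75 CPM in the other 4 libraries of set 69. Slc4a1 was 26.15 CPM in library 69-2 and 14.8 to 15.8 CPM in the others. Mog was 219.4 CPM in library 69-4 and 176 to 181 CPM in the others, and Cnp was 1595 CPM in library 69-4 and 1328 to 1381 CPM in the others. In all 4 the stray library lay farther from set 70 than its neighbours did. Without library 69-4 the log2 fold change of Mog was -0.41 (adjusted p = 0.0084) and that of Cnp was -0.33 (adjusted p = 0.0518).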

How the results depend on the processing

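The 33 calls between the sets became 165 with DESeq2, 53 with limma and voom, and 13 in the fit of all 32 libraries with 5 groups. They became 11 with Y-linked transcripts above or below 10 CPM as a covariate, and 4 to 24 when 1 library was left out. All 33 were among the DESeq2 and the limma calls, 8 among the 13 and 10 among the 11. The count stayed within 1.5 times in the other settings run, except with the replicate block. The second title number did not pair libraries across the sets: correlations of same-numbered libraries were -0.0719 to 0.0917 over 4 pairs, and 1 of 4 correlated best with its own number. With that number as a replicate block 16 genes were called, 12 of them among the 33. Of the 43 diet genes, DESeq2 called 1, beside 1.10% of all tested genes. Of the 568 insulin genes, DESeq2 called 18, beside the same share. With edgeR, 0 to 3 of the insulin genes were called when 1 library was left out. Fitted without the other groups, set 70 gave 157 calls against IS control and set 69 gave 32, and leaving out 1 library of the set gave 13 to 26 and 23 to 70. Of the 23 named called genes, 2 (Ephx2 and Mt-nd2) were called in every setting that held them, and none changed sign. With 1 library left out, 3 of the 23 (these 2 and Fabp7) kept their call in each of the 9 fits. The cause of the lost calls was not tested. Some uncalled genes changed sign. Slc39a12 was 0.0352 with the Y-linked covariate and 0.0185 with the choroid plexus level as a covariate. Vav2 was 0.0129 and Ttr 0.0287 with the latter, and Tfrc was -0.0287 with the replicate block. With 1 library left out these log2 fold changes ranged from -0.1985 to 0.0802 for Slc39a12, -0.0306 to 0.0627 for Scara3, -0.0308 to 0.1098 for Tfrc and -0.0671 to 0.0099 for Vav2.

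The meaning of the title number, the age at collection and the litter are not given in the labels.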

Other observations

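Some genes took separate levels within a set rather than between the sets. The 13925 tested genes with a mean of at least 1 CPM over the 9 libraries were searched on the scale of CPM plus 0.5. Of these, 74 had a gap of at least 4-fold between neighbouring libraries of set 69 or of set 70. Of the 74, 42 have a usable symbol and 0 were called between the sets, beside 0.220% of all tested genes. The 74 were selected for a wide spread within a set, so the 0 decides nothing about a difference between the sets. The 74 include all 6 tested genes of the pineal and photoreceptor list (Mpp4, Neurod4, Cngb1, Gngt2, Rom1 and Grk1), whose gap set library 69-2 above the rest of set 69. Part of the 74 thus rests on that library alone. Other genes had another pattern. The feature LOC100911625 was 91.9, 89.1, 8.79, 86.6 and 7.46 CPM in set 69 and 5.38 to 14.8 CPM in set 70. Selenow, a selenoprotein, was 36.9 and 41.6 CPM in libraries 69-1 and 69-5, 2.09 to 2.61 CPM in the other 3 libraries of set 69 and 1.69 to 3.19 CPM in set 70. LOC100360117 was 39.1 and 39.3 CPM in libraries 70-1 and 70-3, and 3.91 and 3.99 CPM in libraries 70-2 and 70-4. Fam111a was 1.68 CPM in library 69-1 and 1.19 CPM in library 70-2, and 20.5 to 27.4 CPM in the other 7. These genes were picked after their values were seen, and near-identical copies of them were not looked for.

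The pineal and photoreceptor genes of library 69-2 included Asmt, the last enzyme of melatonin synthesis, at 28.9 CPM, Crx, a transcription factor of photoreceptors and pinealocytes, at 15.8 CPM, Rbp3, a retinoid-binding protein, at 84.4 CPM and Gnb3, a subunit of the cone G protein, at 97.5 CPM. Of the 20 genes, 18 were highest in library 69-2 among the 32 libraries. Without this library 17 genes were called between the sets, 16 of them among the 33.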
